A study of Mus musculus with 12 samples.

Results

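Genes that mark the choroid plexus epithelium were followed through 12 striatal RNA-seq libraries. The members were picked by name: Ttr, Enpp2, Kl, Sostdc1, Folr1, Clic6, Otx2, Kcnj13 and Aqp1, because R6/2 vehicle library 1 and wild-type PLX3397 library 1 were high in Ttr. Of these 9 genes, 7 had a row among the 15397 genes of the table. Kcnj13, an inward rectifier potassium channel, and Aqp1, the water channel of the apical membrane, were not analysed here. The mice were C57BL/6. R6/2 mice carry a transgene for a fragment of mutant human huntingtin and serve to model Huntington's disease, with wild-type mice as their controls. PLX3397, an inhibitor of the kinase Csf1r on which microglia depend, was given in chow at 275 ppm from week 7 to week 11, and the other mice had vehicle. The 4 groups were R6/2 on PLX3397, wild type on PLX3397, R6/2 on vehicle and wild type on vehicle, with 3 mice and 3 libraries each. All animals were sampled as dissected striatum.

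The choroid plexus is a folded tissue inside the ventricles. Its epithelium secretes cerebrospinal fluid, passes folate and thyroid hormone from blood to fluid, and releases proteins such as transthyretin in large amounts. It lies next to the striatum, which faces the lateral ventricle, but is not part of it. The lateral ventricle is also lined by ependyma, a layer of ciliated cells.

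The libraries held 18902120 to 24293208 reads in genes, a depth at which each member was counted in every library, although Folr1 was counted as only 2 reads in R6/2 PLX3397 libraries 1 and 2. Csf1r lay between -1.04 and 1.65 log2 CPM (CPM, counts scaled to library size, with a small number of reads added before the log) in the 6 PLX3397 libraries and between 6.62 and 7.16 in the 6 vehicle libraries. Several libraries stood apart. R6/2 vehicle library 1 and wild-type PLX3397 library 1 were those high in Ttr, so results are given with and without them. The cortical neuron gene Slc17a7 was low in R6/2 PLX3397 library 1 (2.79 log2 CPM) and library 2 (3.06), beside a range of 5.67 to 9.86 over the rest, where wild-type PLX3397 library 1 was the lowest. No batch is named in the labels. Because this was bulk tissue, fewer cells of a type and less RNA per cell cannot be told apart anywhere below.

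RefSeq promoter windows of 250 bases before to 50 after the start were found for 4 of the 9 genes and for 2 of the 7 measured, Kl and Otx2. They are shown because Otx2, the homeodomain factor of the choroid plexus, is itself a member, and because its family binds TAATCC. Capitals mark that motif or its reverse complement GGATTA. The Kl window is chr5:150952357-150952656 on the plus strand of GRCm38.p6, the Otx2 window is chr14:48665060-48665359 on the minus strand, and the Abca4 window, from a gene with a pattern like that of Ttr over all 12 libraries (r = 0.92, against 0.41 over the 10 others), is chr3:122044210-122044509 on the plus strand.
Kl: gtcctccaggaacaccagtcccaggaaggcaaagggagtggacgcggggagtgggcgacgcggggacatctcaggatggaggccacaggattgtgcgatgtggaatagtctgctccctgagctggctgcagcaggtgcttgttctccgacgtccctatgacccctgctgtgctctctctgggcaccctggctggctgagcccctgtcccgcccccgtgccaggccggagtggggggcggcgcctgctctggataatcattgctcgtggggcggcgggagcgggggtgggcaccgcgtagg
Otx2: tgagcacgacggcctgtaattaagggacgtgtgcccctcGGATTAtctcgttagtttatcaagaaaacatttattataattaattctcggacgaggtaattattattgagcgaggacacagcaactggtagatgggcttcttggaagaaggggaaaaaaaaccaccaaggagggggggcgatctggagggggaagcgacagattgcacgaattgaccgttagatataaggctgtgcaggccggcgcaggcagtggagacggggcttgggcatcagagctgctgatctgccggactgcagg
Abca4: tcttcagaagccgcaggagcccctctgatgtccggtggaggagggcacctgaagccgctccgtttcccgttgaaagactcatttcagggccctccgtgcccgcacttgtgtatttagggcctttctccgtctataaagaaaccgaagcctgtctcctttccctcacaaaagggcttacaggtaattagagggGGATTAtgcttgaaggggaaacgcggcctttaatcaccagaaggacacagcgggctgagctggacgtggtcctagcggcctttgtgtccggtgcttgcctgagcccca
On either strand TAATCC was found in 2320 of 32851 mouse promoter windows (7.06%), in 1 of the 4 Otx2 windows, and not in the Kl window. Among 33 windows of other choroid plexus genes it was found in 3 (9.09%), of which Abca4 holds 1. The windows of Wdr86 and F5, which ranked nearer to Ttr than Abca4 over the 12 libraries, held no match. All matches given are of letters and are not known binding sites.

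Secreted proteins are given first, then receptor and channel, then the transcription factor. Ttr encodes transthyretin, the carrier of thyroxine and of the retinol-binding protein in plasma and cerebrospinal fluid, and the gene (NCBI 22139, protein coding) lies at chr18:20664209-20674326 in GRCm38.p6. It was at 4.01, 4.04 and 5.58 log2 CPM in R6/2 mice on PLX3397, at 9.89, 5.67 and 4.74 in wild-type mice on PLX3397, at 12.10, 5.11 and 5.81 in R6/2 mice on vehicle, and at 5.69, 6.09 and 6.01 in wild-type mice on vehicle. Within both groups that hold a library high in Ttr, library 1 was far above its 2 companions, and the 3 wild-type vehicle libraries were close together. In CPM, Ttr stood at 4387 in R6/2 vehicle library 1 and 946.7 in wild-type PLX3397 library 1, against a median of 49.3 in the 10 others, which is 88.9 and 19.2 times that median. Its 115961 reads in R6/2 vehicle library 1 made up 0.477% of all reads (95% Wilson interval 0.475 to 0.480%, counting error only), and its 18348 reads in wild-type PLX3397 library 1 made up 0.0885% (0.0873 to 0.0898%), while the share in the others was 0.00168 to 0.00651%.

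Enpp2 encodes autotaxin, the secreted enzyme that makes lysophosphatidic acid, and oligodendrocytes express it too (NCBI 18606, chr15:54838901-54952789). It was at 8.22, 8.11 and 8.68 log2 CPM in R6/2 on PLX3397, at 9.61, 8.19 and 8.20 in wild type on PLX3397, at 10.20, 8.26 and 8.33 in R6/2 on vehicle, and at 8.68, 8.93 and 8.20 in wild type on vehicle. The highest values were again those of library 1 of R6/2 vehicle and of wild-type PLX3397, at 3.89 and 2.59 times the median CPM of the 10 others. Outside those libraries Enpp2 varied less than any other member, by 1.78-fold between its lowest and highest CPM.

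Kl, which encodes klotho, the co-receptor for Fgf23 that is also shed into cerebrospinal fluid (NCBI 16591, chr5:150952607-150993817), was at 2.39, 2.44 and 2.34 log2 CPM in R6/2 on PLX3397, at 5.16, 1.78 and 2.10 in wild type on PLX3397, at 6.06, 1.84 and 2.63 in R6/2 on vehicle, and at 2.82, 3.07 and 2.97 in wild type on vehicle. The fold over the median of the 10 others was 12.7 in R6/2 vehicle library 1 and 6.81 in wild-type PLX3397 library 1. Sostdc1, a secreted inhibitor of BMP and Wnt signals (NCBI 66042, chr12:36314169-36318452), was at 1.98, 0.56 and 1.04 in R6/2 on PLX3397, at 4.39, 0.91 and -0.27 in wild type on PLX3397, at 4.29, 0.82 and 2.24 in R6/2 on vehicle, and at 1.43, 1.39 and 2.15 in wild type on vehicle. Its fold was 8.69 in R6/2 vehicle library 1 and 9.32 in wild-type PLX3397 library 1, and it was the only member with the larger value in the wild-type library.

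Folr1 encodes the folate receptor alpha, which carries folate across the plexus (NCBI 14275, chr7:101858331-101870788). Its log2 CPM was -2.54, -2.51 and -0.08 in R6/2 on PLX3397, 3.01, 0.18 and 0.11 in wild type on PLX3397, 4.54, -1.77 and -0.30 in R6/2 on vehicle, and 0.12, 1.28 and 0.46 in wild type on vehicle. It had 613 reads in R6/2 vehicle library 1 and 154 in wild-type PLX3397 library 1, against 2 to 52 reads in the others. Those 2 libraries stood at 25.1 and 8.62 times the median CPM of the others. Clic6 encodes a chloride intracellular channel protein (NCBI 209195, chr16:92498147-92541241). It was at 4.76, 4.88 and 3.90 log2 CPM in R6/2 on PLX3397, at 5.51, 4.46 and 4.46 in wild type on PLX3397, at 5.59, 2.68 and 3.79 in R6/2 on vehicle, and at 4.49, 4.69 and 5.02 in wild type on vehicle. Its folds over the median CPM of the 10 others were 2.17 in R6/2 vehicle library 1 and 2.05 in wild-type PLX3397 library 1.

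Otx2, the transcription factor (NCBI 18424, chr14:48656781-48667644), was at 1.59, 0.83 and -0.14 log2 CPM in R6/2 on PLX3397, at 1.74, 1.54 and -0.90 in wild type on PLX3397, at 3.53, -1.54 and 0.03 in R6/2 on vehicle, and at 1.84, 2.27 and 2.36 in wild type on vehicle. R6/2 vehicle library 1 was the highest, with 302 reads, but wild-type PLX3397 library 1, with 63 reads, lay below all 3 wild-type vehicle libraries.

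**Figure D1:**
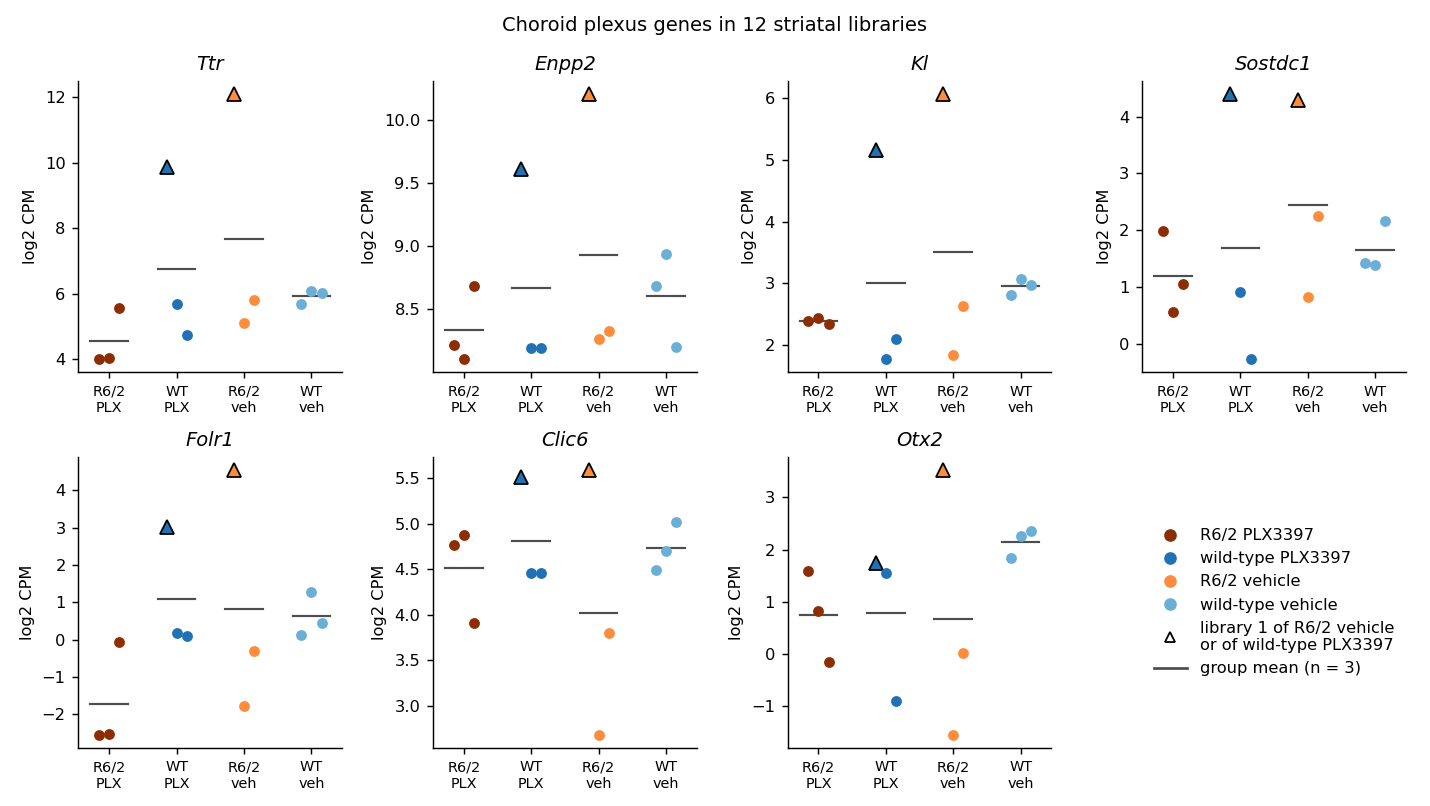
Level of each of the 7 measured genes in log2 CPM (vertical axis, a different range in each panel) in the 12 libraries, by group, with PLX3397 groups at the left. Dots and triangles are single libraries, triangles mark library 1 of R6/2 vehicle and of wild-type PLX3397, and lines are means of 3 libraries. Both triangles are above every dot in 6 panels, and for Otx2 the wild-type triangle at 1.74 is within the range of the dots.

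Levels can be set between genes once divided by transcript length. In R6/2 vehicle library 1 the order was Ttr at 3699 CPM per kb, Enpp2 at 380.0, Folr1 at 17.7, Clic6 at 12.8, Kl at 11.4, Sostdc1 at 11.0 and Otx2 at 4.41. In wild-type PLX3397 library 1 it was Ttr at 798 CPM per kb, Enpp2 at 253, Clic6 at 12.1, Sostdc1 at 11.8, Kl at 6.13, Folr1 at 6.05 and Otx2 at 1.25. The medians over the 10 other libraries had the order Enpp2 at 97.6 CPM per kb, Ttr at 41.6, Clic6 at 5.90, Sostdc1 at 1.26, Kl at 0.900, Otx2 at 0.869 and Folr1 at 0.702. Across those 10 libraries Enpp2 (89.0 to 158), Ttr (13.5 to 57.3) and Clic6 (1.68 to 8.59) did not overlap each other, whereas the last 4 genes had overlapping ranges and Clic6 overlapped Sostdc1, Otx2 and Folr1. Ttr was thus above Enpp2 in the libraries high in Ttr and below it in the medians of the others.

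Since Ttr in those 2 libraries chose the genes, the next counts are descriptions without a test. Of the 7 measured members 6, all but Otx2, were higher in both libraries than in each of the 10 others, where 319 of 15397 genes (2.07%) did the same. For the lower of the 2 libraries, the distance above the highest of the 10 others was 3.80 log2 units for Ttr, 2.10 for Kl, 2.05 for Sostdc1, 1.72 for Folr1, 0.68 for Enpp2 and 0.49 for Clic6, and for Otx2 it was -0.62. By that distance Ttr, Kl and Sostdc1 were at ranks 1, 2 and 3 of all genes, Folr1 at rank 7, Enpp2 at 22, Clic6 at 32 and Otx2 at 6156. Clic6 was thus the member just inside and Otx2 the member outside.

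The excess of each gene, its CPM in a library less the median of the 10 others, was compared between the libraries. R6/2 vehicle library 1 held 4.83 times the excess of wild-type PLX3397 library 1 for Ttr, 3.17 times for Folr1, 2.01 times for Kl, 1.82 times for Enpp2, 1.11 times for Clic6 and 0.924 times for Sostdc1. The 6 members higher in both had a median ratio of 1.92. For Otx2 the ratio was 9.20, over an excess of only 0.997 CPM in wild-type PLX3397 library 1, which lay within the range of the 10 others. Among the 6, the excess was most unequal between the libraries for Ttr and Folr1 and closest to equal for Sostdc1 and Clic6.

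Other genes of the choroid plexus epithelium, listed apart from the members, were high in the same 2 libraries. Of 38 named, 31 were measured and 17 (54.8%) were higher in both than in each of the 10 others, beside 2.07% of all genes. The median difference of the 31 from the 10 others was 2.22 log2 units in R6/2 vehicle library 1 and 1.34 in wild-type PLX3397 library 1, beside 3.08 and 2.75 for the members in the same order of libraries. Cldn2, a claudin of the leaky tight junctions of the plexus, was at 25.2 times the median CPM of the others in R6/2 vehicle library 1 and at 11.0 times in wild-type PLX3397 library 1. Igf2, an insulin-like growth factor, was at 6.83 and 2.54 times, F5, coagulation factor V, at 11.8 and 4.72 times, and Trpv4, a cation channel of the apical membrane, at 5.90 and 4.70 times in the same order. Slc4a2, an anion exchanger of the basolateral membrane, was at 1.94 and 1.69 times, Cab39l at 1.61 and 1.14 times, and 1500015O10Rik, which encodes augurin, at 19.9 and 8.52 times. The 17 had a median ratio of excess of 2.28, with a range of 1.24 to 4.35. The rest of the 31 were not higher in both than in each of the 10 others. Those named next were picked after their values were seen. Htr2c, the serotonin receptor that neurons express too, was at 1.07 times the median of the others in R6/2 vehicle library 1 and 0.848 times in wild-type PLX3397 library 1. Slc12a2, a cotransporter of sodium, potassium and chloride found in many brain cells, was at 0.891 and 0.602 times, and Car12, a carbonic anhydrase, at 1.34 and 4.79 times. Prlr was at 1.97 and 0.656 times, and Slc5a5 at 0.999 and 0.589 times.

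**Figure D2:**
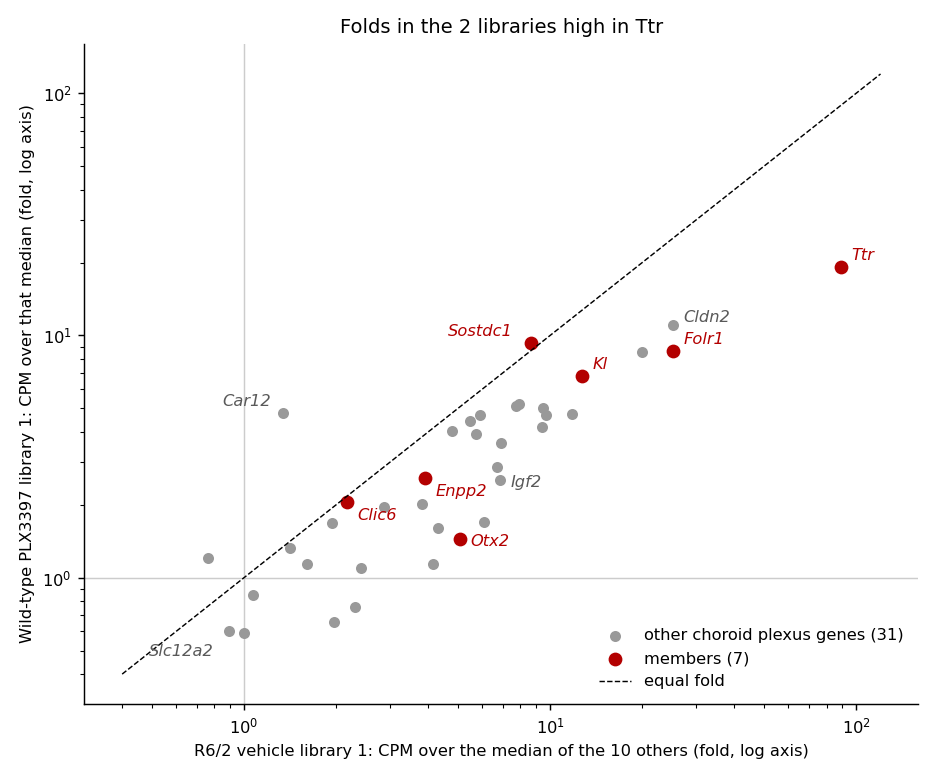
Fold of CPM over the median of the 10 other libraries, in R6/2 vehicle library 1 (horizontal, log axis) and in wild-type PLX3397 library 1 (vertical, log axis), for the 7 members (red) and 31 other choroid plexus genes (grey), with a dashed line of equal fold. Most points are below the line, Ttr is farthest out at 88.9 and 19.2, and Car12 is above the line at 1.34 and 4.79.

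Markers of other cell types that border the striatum or the plexus were listed in the same way. None of 20 ependymal genes was higher in both libraries than in each of the others, and their median difference was 0.37 log2 units in R6/2 vehicle library 1 and 0.94 in wild-type PLX3397 library 1. Their summed level was 182 CPM in R6/2 vehicle library 1 and 863 in wild-type PLX3397 library 1, against 113 to 692 in the others. Pcp4l1 alone made up 91.8 and 722 CPM of it, and without Pcp4l1 the sum was 90.5 and 141 CPM, against 36.5 to 222 in the others. Foxj1, the regulator of motile cilia, was at 3.97 and 4.86 log2 CPM in those 2 libraries and reached 4.97 elsewhere. Of 15 genes of meninges and fibroblasts 4 were higher in both, Col1a1, Col1a2, Aebp1 and Serping1, with a median difference of 1.15 in R6/2 vehicle library 1 and 0.42 in wild-type PLX3397 library 1, and their summed level was 210 and 121 CPM against 82.1 to 149. The counts were 1 of 9 for endothelium, which was Slco1c1, and 2 of 12 for oligodendrocytes, which were Mag and Gjb1. Over all genes 2.07% were higher in both.

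Lists tied to the mouse groups differed between the 2 libraries in opposite ways. Microglial genes had a median difference of 2.55 in R6/2 vehicle library 1, from a vehicle group, and -2.51 in wild-type PLX3397 library 1, from a PLX3397 group. Medium spiny neuron genes were at -2.11 and 2.42, and wild-type PLX3397 library 1 was the highest of the 12 libraries for 12 of 12 of them. Penk, the enkephalin precursor of striatal projection neurons, which checks the labelled tissue, had a log2 CPM of 6.66 in R6/2 vehicle library 1 and 11.03 in wild-type PLX3397 library 1, against 6.10 to 10.99 in the others, so it was well expressed in all 12. Cortical neuron genes were at -0.02 and -3.04, and genes of thalamus, septum and pallidum at 0.14 and -1.22. Of the 3 lists of neurons and that of microglia, 0 genes were higher in both libraries. The part of any of these cell types in the choroid plexus values was not tested.

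**Figure D3:**
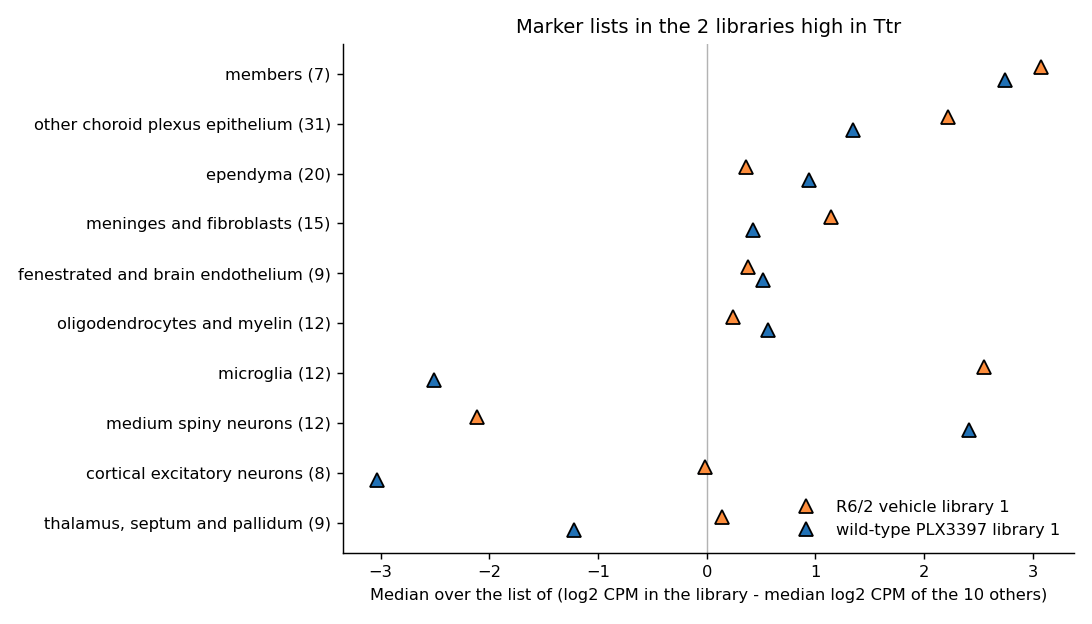
Median over each list, in log2 units, of the gene's level in the library less its median in the 10 others, for R6/2 vehicle library 1 (orange) and wild-type PLX3397 library 1 (blue), with the number of measured genes in brackets. Both triangles are right of 2.7 for the members, and the microglial and medium spiny lists have the 2 libraries on opposite sides of 0.

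The comparisons of the design ask what the mutant transgene and the loss of microglia do in the striatum, and for the choroid plexus genes they turned on the same 2 libraries. With all 12, none of the 7 members was called at a limma adjusted p under 0.05 (Benjamini-Hochberg over 15397 genes) in any of 6 comparisons, and limma-voom on the recovered reads also called 0. By limma 0 of 42 tests had an unadjusted p under 0.05, where 2023 to 7174 of the 15397 genes did in each comparison. Ttr averaged 7.67 ± 3.85 log2 CPM in R6/2 and 5.93 ± 0.21 in wild type on vehicle (SD, n = 3 each). That difference was 1.74 ± 1.67 (SE; limma adjusted p = 0.565), where 2.11% of all genes were called, and it was -0.47 without R6/2 vehicle library 1 (0.861). For PLX3397 against vehicle in wild type the means were 6.77 ± 2.74 and 5.93 ± 0.21, and the difference was 0.84 ± 1.67 (limma adjusted p = 0.758; 14.2% of genes called), which was -0.72 without wild-type PLX3397 library 1 (0.780). For PLX3397 against vehicle in R6/2 the means were 4.54 ± 0.89 and 7.67 ± 3.85, with a difference of -3.13 ± 1.67 (limma adjusted p = 0.439; 1.1% called). The SD of the groups that hold a library high in Ttr was over 2.7 log2 units.

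Under PLX3397, Ttr differed by -2.22 ± 1.67 between R6/2 and wild type (limma adjusted p = 0.315; 35% of genes called), and between R6/2 on PLX3397 and wild type on vehicle by -1.38 ± 1.67 (0.708; 4.56%). The interaction, the PLX3397 difference in R6/2 less that in wild type, was -3.97 ± 2.37 (limma adjusted p = 0.245; 17%). The lowest adjusted p of any member was that of Folr1 in R6/2 against wild type under PLX3397, with means of -1.71 ± 1.41 and 1.10 ± 1.65 log2 CPM (SD, n = 3 each) and a difference of -2.81 ± 1.41 (limma adjusted p = 0.140). Without R6/2 vehicle library 1, a library of neither group that enters only the shared spread, Folr1 was called with the same difference (0.0351; 36.6% of genes called), and over all alternatives with 12 libraries its adjusted p was 0.0351 to 0.356. Those comparisons share groups, so their signs are not independent of each other.

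The 10 libraries without R6/2 vehicle library 1 and wild-type PLX3397 library 1 were then fitted. They were 3 of R6/2 on PLX3397, 2 of wild type on PLX3397, 2 of R6/2 on vehicle and 3 of wild type on vehicle. Leaving out 2 libraries for being high in Ttr lowered the mean of every member in their groups, and not in wild type on vehicle. Each comparison that uses R6/2 on vehicle or wild type on PLX3397, the interaction included, therefore carries that choice. Of 42 tests 14 had an unadjusted p under 0.05, where 31.4% of the tests over all genes did, and 1 was called. That was Kl in wild type, which in this fit was at 1.78 and 2.10 log2 CPM on PLX3397, against 2.82, 3.07 and 2.97 on vehicle. Wild-type PLX3397 library 1, left out here, was at 5.16. With it the means were 3.01 on PLX3397 and 2.95 on vehicle, so the lower level depends on leaving it out. Without it the values do not overlap, and 25.5% of all genes were likewise lower in both PLX3397 libraries than in each vehicle library. With the 10 libraries the difference was -1.01 ± 0.25 (limma adjusted p = 0.0223, 95% confidence interval -1.57 to -0.45). In that comparison 23.1% of all genes were called and 12.1% were called lower. The call was lost when a trend with GC content and length was removed (-0.57, limma adjusted p = 0.142), without wild-type PLX3397 library 2 (0.151) and without wild-type vehicle library 1 (0.0584) or 2 (0.0766), over a range of 0.0220 to 0.151. Without wild-type vehicle library 3, Enpp2 was called beside Kl (limma adjusted p = 0.0482; 25.7% of genes called).

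In the same 10 libraries all 7 members had negative differences for R6/2 against wild type on vehicle (-2.91 to -0.13). With 12 libraries 5 were positive and 2 negative, so these signs depend on leaving out R6/2 vehicle library 1. With the 10, 0 were called (3 at an unadjusted p under 0.05), where 0.669% of all genes were. Otx2 had the most negative: it was at -1.54 and 0.03 log2 CPM in R6/2 on vehicle, against 1.84, 2.27 and 2.36 in wild type on vehicle, with a difference of -2.91 ± 0.77 (limma adjusted p = 0.0897). Clic6 was at 2.68 and 3.79 in R6/2 on vehicle, against 4.49, 4.69 and 5.02 in wild type on vehicle, and differed by -1.50 ± 0.36 (0.0771). Neither gene overlapped between the groups, and 25.2% of all genes were likewise lower in both R6/2 libraries than in each wild-type one. R6/2 vehicle library 1, left out here, was at 3.53 for Otx2 and 5.59 for Clic6, above every wild-type vehicle library. Clic6 was called with the GC and length trend removed (limma adjusted p = 0.0494; 4.61% of genes called) and without R6/2 PLX3397 library 3 (0.0470; 2.14%). Counts behind Otx2 were low, at 5 and 18 reads in R6/2 on vehicle, against 63, 105 and 118 in wild type on vehicle. All 7 members also had negative differences for PLX3397 against vehicle in wild type (-1.83 to -0.28), where with 12 libraries 6 were positive and 1 negative. They were negative too for R6/2 on PLX3397 against wild type on vehicle (-2.33 to -0.22), and this held with 12 libraries. These 3 comparisons share the wild-type vehicle libraries.

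For R6/2 on PLX3397 against wild type on vehicle, 0 of the 7 were called by limma (3 at an unadjusted p under 0.05) beside 7.29% of all genes, and the nearest were Folr1 at -2.33 ± 0.71 (limma adjusted p = 0.0791) and Ttr at -1.38 ± 0.42 (0.0799). R6/2 PLX3397 libraries 1 and 2 had 396 and 390 reads of Ttr and 2 reads of Folr1 each, where library 3 had 1112 and 20, so the group fell into a pair and a single library. Without library 3, whose absence leaves the pair, Ttr was called at -1.90 (limma adjusted p = 0.00957) and Folr1 at -3.15 (0.0140), with 7.98% of genes called. In those libraries 1 and 2, Slc17a7 was also low, as given above, and Foxj1 was at 2.77 and 3.16 log2 CPM, against 3.67 in library 3. Foxj1 in R6/2 vehicle library 3, at 3.19, was close to that in R6/2 PLX3397 library 2. The part of cortical and ependymal content in the values of Ttr and Folr1 was not tested.

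In the remaining comparisons limma called 0 members with the 10 libraries, beside 1 at an unadjusted p under 0.05 for PLX3397 in R6/2, 1 for R6/2 against wild type under PLX3397 and 3 for the interaction. For PLX3397 against vehicle in R6/2, 4 members had positive and 3 negative differences, from -0.92 for Ttr to 1.51 for Otx2, with 0.877% of all genes called. With 12 libraries 2 were positive and 5 negative. Without R6/2 PLX3397 library 3, Ttr was called at -1.43 (limma adjusted p = 0.0409) and Clic6 at 1.58 (0.0307), with 5.73% of genes called. The call of Clic6 depends on leaving out R6/2 vehicle library 1, which was at 5.59 log2 CPM, above each R6/2 PLX3397 library. For R6/2 against wild type under PLX3397, 5 were positive and 2 negative, with 39.3% of genes called. With 12 libraries all 7 were negative (-2.81 to -0.04), so the positive signs depend on leaving out wild-type PLX3397 library 1. Without R6/2 PLX3397 library 3, Ttr was called in that comparison at -1.18 (limma adjusted p = 0.0226) and Folr1 at -2.67 (0.0106), with 38% called. For the interaction 5 were positive and 2 negative, where with 12 libraries 2 were positive and 5 negative. Its values with 10 libraries thus depend on leaving out the libraries high in Ttr. The nearest to a call were Kl at 1.17 ± 0.35 (limma adjusted p = 0.0519), Otx2 at 3.35 ± 1.09 (0.0626) and Clic6 at 1.55 ± 0.51 (0.0657), with 16.2% of genes called. Without R6/2 PLX3397 library 3, Clic6 (1.86, limma adjusted p = 0.0244) and Otx2 (3.80, 0.0404) were called, with 21.1% of genes called, and without wild-type PLX3397 library 3 Kl was called (0.0477; 21.8%).

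**Figure D4:**
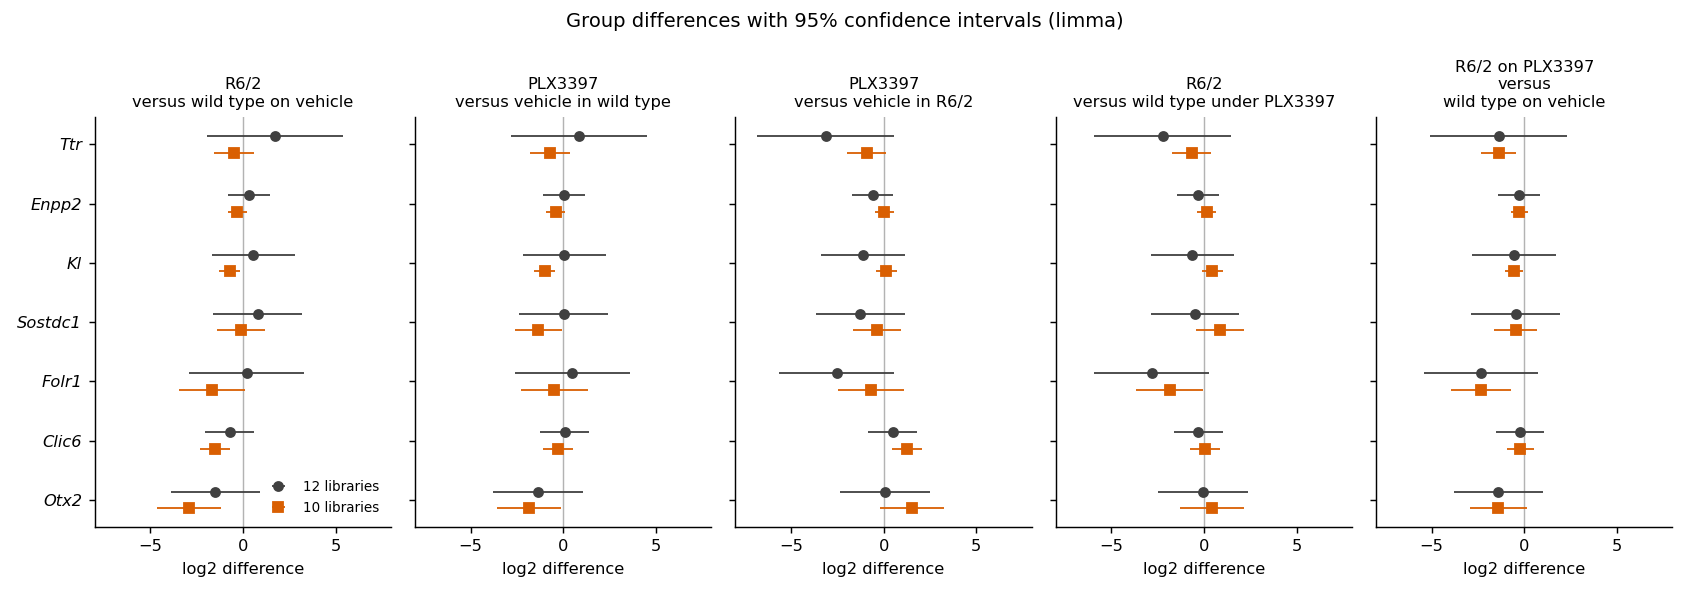
Difference between groups in log2 units (horizontal axis), with 95% confidence intervals from limma, for each member in 5 comparisons, with 12 libraries (dark circles) and with 10 (orange squares). The intervals with 12 libraries cross 0 in every panel, and for Ttr the sign differs between the 2 fits in the first and second panels.

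Genes with a pattern like that of Ttr were ranked by Pearson's correlation of log2 CPM over the 12 libraries, which share their depth and their 2 high libraries, among the 14861 genes whose mean was 1 CPM or more. Enpp2 was at rank 1 (r = 0.95), Kl at rank 2 (0.94), Folr1 at rank 4 (0.93) and Sostdc1 at rank 27 (0.86), while Otx2 (0.57) and Clic6 (0.55) were at ranks 585 and 703. The 15 nearest genes outside the members were Wdr86, Prr32, F5, Lrp10, Abca4, Msx1, Cldn2, Bag3, Pbxip1, Igf2, Slc13a4, Trpv4, Tnfrsf1a, Npr1 and Car14, with r of 0.87 to 0.94. Of these, 8 are on the list of other choroid plexus genes. That 15 of 15 were higher in both of the libraries high in Ttr follows largely from the ranking, since those 2 libraries set most of the spread of Ttr. Over the 10 other libraries their correlations spread from -0.47 for Trpv4 to 0.91 for Wdr86, and 3 of 15 were above 0.8: Wdr86, Prr32 (0.89) and Msx1 (0.87). Msx1, a homeobox factor of the roof plate and plexus, was at -1.42, -1.23 and -0.53 log2 CPM in R6/2 on PLX3397, at 1.11, -0.13 and -1.20 in wild type on PLX3397, at 2.02, -0.74 and 0.17 in R6/2 on vehicle, and at -0.64, 0.95 and -0.08 in wild type on vehicle.

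Among the members, 6 correlations with Ttr were computed over the 10 other libraries. Folr1 had Pearson's r = 0.869 (permutation p = 0.00664, adjusted 0.0398) and Spearman's rho = 0.818 (permutation p = 0.00566, adjusted 0.0340). Without R6/2 PLX3397 libraries 1 and 2, the farthest from the median of Ttr, r was 0.572 over 8 libraries, so the relation rests largely on that pair. Enpp2 had r = 0.561 (permutation p = 0.0502, adjusted 0.151) and rho = 0.539 (adjusted 0.150). The other 4 had an r of -0.105 for Clic6 to 0.392 for Kl, with adjusted permutation p of 0.460 to 0.863 for Pearson's r and 0.150 to 0.948 for Spearman's rho. Without the pair, r was higher for Sostdc1 (0.846), Otx2 (0.826), Kl (0.712) and Clic6 (0.464). Between other members r over the 10 libraries was highest for Clic6 and Otx2 (0.786) and for Kl and Otx2 (0.650). Over the same libraries the median r with Ttr was 0.730 for 20 ependymal genes, 0.728 for 12 microglial genes, 0.664 for 12 oligodendrocyte genes and 0.566 for 8 cortical neuron genes, against 0.380 for the other members, 0.237 for the 31 other choroid plexus genes and -0.03 for all genes. These values are descriptions, and the libraries share their groups.

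**Figure D5:**
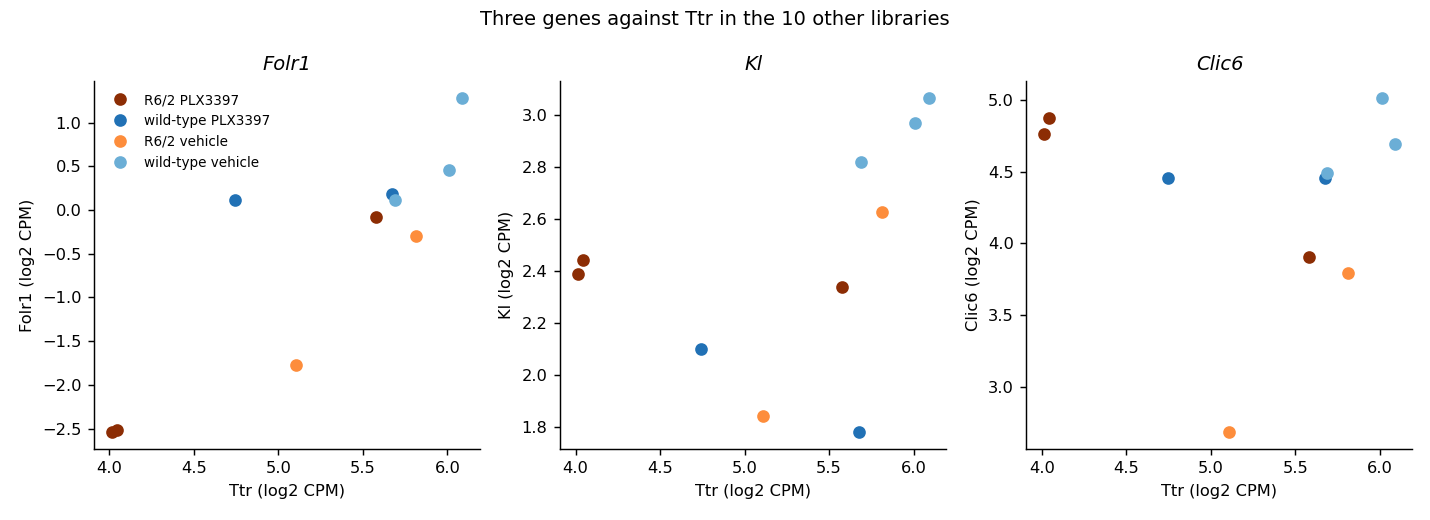
Log2 CPM of Folr1, Kl and Clic6 (vertical axes) against that of Ttr (horizontal axes) in the 10 libraries other than R6/2 vehicle library 1 and wild-type PLX3397 library 1, coloured by group. R6/2 PLX3397 libraries 1 and 2 are at the far left, near 4.01 and 4.04 log2 CPM of Ttr, where Folr1 is lowest at -2.54 and -2.51 and Clic6 is among its higher values at 4.76 and 4.88.

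Genes that work with the members were listed by pathway, and most were not higher in both of the libraries high in Ttr than in the others. Over all genes 2.07% were, against 11.1% to 15.4% of those lists below that held any such gene. The counts were 1 of 9 for folate uptake and use, which was the reduced folate carrier Slc19a1, 0 of 4 for klotho and FGF signalling, 0 of 7 for lysophosphatidic acid receptors and breakdown, 2 of 13 for BMP and Wnt partners, which were Bmp6 and Bmp7, 1 of 9 for aquaporins and fluid secretion, which was the carbonic anhydrase Car14, and 0 of 5 for the Otx family and its partners. These counts are descriptions from the libraries that chose the members.

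Several of these genes were called in the group comparisons with all 12 libraries, where no member was. Rbp4, the retinol-binding protein whose complex transthyretin carries, rose with PLX3397 in wild type (1.03 ± 0.25, limma adjusted p = 0.0247) and was lower in R6/2 than in wild type under PLX3397 (-2.72 ± 0.25, 0.000166). It was the only one of the 15 genes of its list, which handle thyroid hormone and retinol, called with PLX3397 in wild type, where 14.2% of all genes were. In R6/2 against wild type under PLX3397, 6 of 15 were lower with 12 libraries and 5 with 10, where 17.9% of all genes were lower with 12. With the 10 libraries Rbp4 also fell with PLX3397 in R6/2 (-1.25 ± 0.20, limma adjusted p = 0.0201). Plpp3, a phosphatase that breaks down lysophosphatidic acid, was lower in R6/2 than in wild type on vehicle (-0.97 ± 0.14, limma adjusted p = 0.0161). It was the only one of 7 in its list, where 2.11% of all genes were called. Of 13 BMP and Wnt partners, 4 fell with PLX3397 in wild type (Bmpr1a, Bmpr2, Lrp6 and Wnt5a), beside 8.3% of all genes, and with 10 libraries Lrp6 was not called (limma adjusted p = 0.0559). In R6/2 against wild type under PLX3397 5 of the 13 were higher and 1 was lower with 12 libraries, and 4 and 1 with 10, beside 17.1% and 17.9% of all genes with 12. Of 9 genes of fluid secretion, Aqp4, the water channel of astrocytes, was the only one lower with PLX3397 in wild type (-1.53 ± 0.27, limma adjusted p = 0.0102). In the Otx list Lhx2 was lower in R6/2 under PLX3397 (-1.32 ± 0.38, limma adjusted p = 0.0220). It was 1 of 5, beside 17.9% of all genes. Fpgs of the folate list (-0.88 ± 0.27, limma adjusted p = 0.0454) and Gbx2 of the Otx list (3.21 ± 0.91, 0.0371) were called in the interaction with 12 libraries. With 10 they were not (0.0976 and 0.0536). They were 1 of 9 and 1 of 5 in their lists, beside 17% of all genes called with 12.

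Among the 31 other choroid plexus genes, those called with 12 libraries were as follows, to be read against the shares of all genes given above for each comparison. Slc12a2 was lower with PLX3397 in wild type (-1.16 ± 0.22, limma adjusted p = 0.0126) and higher in R6/2 than in wild type under PLX3397 (1.16 ± 0.22, 0.00334). Car12 was lower in R6/2 than in wild type under PLX3397 (-3.81 ± 0.66, limma adjusted p = 0.00230), as was Lbp (-3.32 ± 0.95, 0.0210), and Car12 was lower in R6/2 on PLX3397 than in wild type on vehicle (-3.28 ± 0.66, 0.0184). Igfbp2 and Slc12a2 were called in the interaction, at -2.62 ± 0.68 (limma adjusted p = 0.0293) and 1.40 ± 0.31 (0.0190). By limma 0 of the 31 were called for R6/2 against wild type on vehicle (4 at an unadjusted p under 0.05, beside 3476 of all 15397 genes). For PLX3397 against vehicle in R6/2, 0 were called (5 at an unadjusted limma p under 0.05, beside 2023 of all 15397). With the 10 libraries, 1 of the 31 was called for R6/2 against wild type on vehicle (Car12, lower) and 0 for PLX3397 in R6/2. For PLX3397 in wild type 2 were called, F5 and Slc12a2, both lower. Wild-type PLX3397 library 1, left out there, had more F5 than each of the 10, at 2.99 log2 CPM. Under PLX3397, 1 was higher in R6/2 than in wild type (Slc12a2) and 4 were lower (Car12, Igfbp2, Krt18 and Lbp). For R6/2 on PLX3397 against wild type on vehicle 2 were lower (Car12 and Lbp), and in the interaction 3 were higher (Prlr, Slc12a2 and Vat1l) and 1 was lower (Igfbp2). Of 20 ependymal genes, by comparison, 8 were lower in R6/2 than in wild type under PLX3397 with 12 libraries and 7 with 10, and 5 were lower in R6/2 on PLX3397 than in wild type on vehicle with either, where 3.63% of all genes were lower with 12. Among the 5 was Ccdc153 (-3.98 ± 0.90, limma adjusted p = 0.0318 in that comparison). Between those groups Ttr and Folr1 had the differences of -1.38 and -2.33 given above.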

How the data were processed

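RNA from dissected striatum was sequenced from TruSeq libraries, per the labels' protocols. STAR, featureCounts, edgeR, limma and the mm10 build are named in the submitters' processing notes, without versions or roles. The deposited table carries the name RPKM, but its values are log2 CPM with a small prior count of 1.65 to 2.41 reads, as tested on the file: they share 1 lowest value per table, and antilogs less the prior are whole reads for 100% of values within 0.1 read. The authors' log2 values were used as deposited, and CPM and reads were recovered from them. The planned tests had allowed for this. Recovered reads were tested by limma-voom as an alternative, and no negative binomial test was run.

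Group means were fitted over all 12 libraries with limma 3.58.1 in R 4.3.3, with an intensity trend, two-sided tests and Benjamini-Hochberg adjustment over 15397 genes, and again over the 10 libraries other than R6/2 vehicle library 1 and wild-type PLX3397 library 1. The fit was tested on simulated data. Correlations, with two-sided permutation tests, and tables were computed in Python 3.11.15 with scipy 1.17.1. CPM per kb used the longest GENCODE M21 transcript, and positions and promoters came from RefSeq for GRCm38.p6. No genome-wide protein table was used here. P-values of limma rest on the spread between mice within groups, moderated over genes, with 3 mice a group in the fit of 12 libraries. In the fit of 10 libraries, wild type on PLX3397 and R6/2 on vehicle had 2 mice each, and fewer where a further one was left out. Permutation p-values shuffle libraries across groups and do not measure the spread within them. Intervals for shares of reads cover counting error only.

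The members and lists were chosen with earlier results of these data known. Named genes were the members, the 15 genes most like Ttr, up to 4 genes of each list (the largest mean CPM among those higher in both libraries high in Ttr, otherwise the largest mean CPM), Csf1r and Slc17a7. List genes named because they were called, or as exceptions, were chosen after their values were seen. Alternatives were another prior, filter and scaling, limma-voom, separate fits, a replicate block, GC and length correction and leaving out libraries. One result on a pathway list is not reported here.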

Additional observations from a re-analysis of the deposited data

How the results depend on the processing

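With 12 libraries the count of members called was 0 in each of 6 comparisons, and it stayed at 0 under every alternative except for 1 called with PLX3397 in wild type when R6/2 vehicle library 1 and wild-type PLX3397 library 1 were left out together, and 1 in R6/2 against wild type under PLX3397 without R6/2 vehicle library 1. The difference of Ttr between R6/2 and wild type on vehicle reversed to -0.47 without R6/2 vehicle library 1 or without both, and was 3.03 at most when single libraries were left out. That for PLX3397 in wild type reversed to -0.72 without wild-type PLX3397 library 1 or without both, and was 1.85 at most. With 10 libraries, leaving out each further library gave 0 to 1 called for the genotypes on vehicle and 0 to 2 in each of the 5 other comparisons. The alternatives with 10 libraries were chosen after seeing the data. Removing the GC and length trend gave 1 called between the genotypes on vehicle and 0 with PLX3397 in wild type. The replicate block gave 0 called in all comparisons with 12 libraries, and 0 with PLX3397 in wild type with 10, where Kl had -1.04 (limma adjusted p = 0.0700). Same-numbered libraries had correlated deviations of -0.321 to 0.396, over 0.1 in 3 of 18 pairs, so the numbers do not pair the samples. By Spearman's correlation 2 of the 15 genes most like Ttr were the same. Of 7 members 6 were higher in both libraries under each scaling tried, beside 1.97 to 2.45% of genes. The cause was not tested for any of these. With 2 to 52 reads of Folr1 outside the libraries high in Ttr, its differences are limited by depth.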
